A study of Mus musculus with 11 samples.

Results

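Livers that carried mutant β-catenin together with Myc were compared with wild-type livers across every gene on the array. The members are the 8 arrays labelled β-catΔEx3:Myc (4 livers) or WT (4 livers), of 11 arrays in the whole series; the arrays of livers with β-catΔEx3 alone are not used here. All 8 livers came from male mice of a hybrid strain, mostly B6SJL with a minor 129S6 part, and no treatment is named. The age is given as a range of 22 to 40 days for 3 livers of each group, as 31 days for WT liver 4 and as 29 days for β-catΔEx3:Myc liver 4. β-catΔEx3 denotes β-catenin without exon 3, which holds the residues that mark the protein for breakdown, and Myc is the growth-driving transcription factor c-Myc. The series is titled as a set of hepatoblastoma models, and its design text counts the WT livers, too, among tumour-bearing ones. The promoter or Cre that drives each allele, the cells that carry it, and whether a piece was tumour or surrounding tissue are not given in the sources used here. Livers of each group carry their own numbers in the labels, but nothing states that these are separate animals or litters, so each p-value measures the spread between these samples. The β-catΔEx3:Myc livers 1 to 4 are called mutant livers 1 to 4.

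In the liver, β-catenin carries the Wnt signal into the nucleus, where it works with Tcf factors to switch on its own feedback genes and the genes of perivenous hepatocytes, the cells around the central vein that take up ammonia as glutamine. Periportal hepatocytes, at the other end of the lobule, make urea and glucose. Myc pairs with Max on E-boxes and is known for raising ribosome production, nucleotide synthesis and other growth genes. Hepatoblastoma is a childhood liver tumour whose cells resemble those of the fetal liver.

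Each value is the log2 processed signal of a probe minus the 75th percentile of its array, here called the relative signal, so that 0 marks the 75th percentile of the array and a difference of 1 is a 2-fold change. Levels were compared between arrays for 1 gene at a time and never between genes. The 75th percentile of processed signal was 193 to 304 on the 8 arrays, 47.8 to 52.4% of probes were well above background on each, and 0 spots were saturated. In a principal component analysis, 65.6% of the variance lay on an axis that separated the groups without overlap, with mutant liver 4 at 69.9 and the other mutant livers at 91.6 to 98.9. The second component (9.58%) placed mutant liver 3 at 56.2 and mutant liver 4 at -58.1. Correlation of log2 values between arrays was 0.975 to 0.99 within WT, 0.967 to 0.982 within the mutant group and 0.916 to 0.934 between groups.

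Of 21939 genes and unnamed transcripts tested with limma, 9659 (44%) differed at an adjusted p under 0.05. Of all tested, 5636 (25.7%) were higher and 4023 (18.3%) were lower in the mutant livers, and for 42.6% all 4 arrays of one group lay above all 4 of the other. The smallest called difference was 1.26-fold, and 2470 higher and 2597 lower features changed at least 2-fold, 220 and 251 of them at least 10-fold. The median difference over everything tested was 0.12, and 58.3% of the calls were higher. With each array scaled to the 75th percentile of the probes detected on all arrays, the median moved to -0.02 and 4522 were higher and 4930 lower, so that 47.8% of the calls were higher. Among genes with a symbol, 3392 were higher (24.6%) and 2928 lower (21.2%). The plot of gene lists shows each list against these shares.

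**Figure D1:**
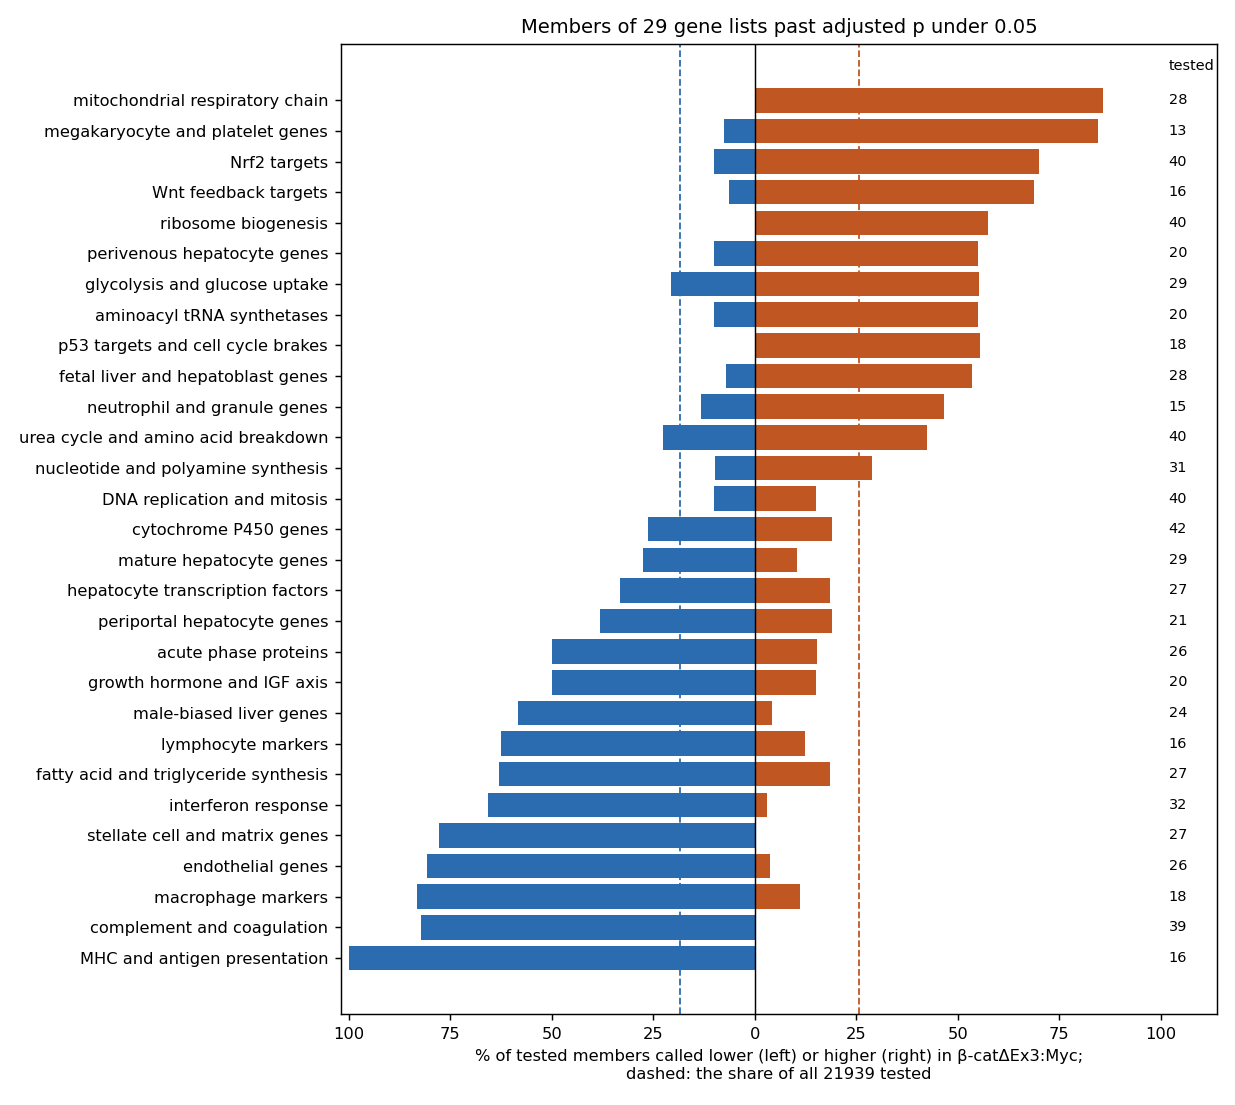
Percent of tested members called lower (left bars) or higher (right bars) in β-catΔEx3:Myc livers for 29 gene lists, with the number tested at the right and the shares over all 21939 features as dashed lines (25.7% higher, 18.3% lower). The respiratory chain (24 of 28) and Nrf2 target (28 of 40) lists reach far to the right, and the antigen presentation (16 of 16) and complement (32 of 39) lists far to the left.

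The slide and the scan day, both read from the file headers, were not balanced between the groups. WT livers 1 to 3 lay on slide 1, mutant livers 1 and 2 on slide 2, mutant liver 3 on slide 3, and WT liver 4 with mutant liver 4 on slide 4. In that 1 pair on a shared slide, 9471 of 9657 called features (98.1%) differed in the same direction, and within the first scan day (3 WT against 2 mutant livers) 9659 of 9659 did; these arrays are among those that gave the calls. With the slide as a fixed block, the estimate is the slide 4 difference alone, on 3 residual degrees of freedom, and 837 features were higher and 889 lower. The slide 4 difference is therefore given beside most main genes, and the number of a list's calls that held under this slide block beside most lists.

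The labels were checked first on the engineered genes. Myc, the transcription factor itself, read 2.3, -0.12, 0.22 and -0.52 in WT livers 1 to 4 and 4.65, 3.13, 2.55 and 4.98 in mutant livers 1 to 4. The groups did not overlap, though WT liver 1 lay just below mutant liver 3, and the difference was 3.36 ± 0.73 (SE, adjusted p = 0.00646, slide 4 difference 5.5). Without WT liver 1 it was 3.97. Whether this probe reads a transgene, the endogenous gene or both is not given in the sources used here. Ctnnb1, the gene of β-catenin, lay between 3.44 and 3.81 in WT and between 3.15 and 3.58 in mutant livers, a difference of -0.18 ± 0.15 (adjusted p = 0.362). The probe's place relative to the deleted exon was not determined, so this level does not check the allele.

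Wnt feedback targets, the genes that β-catenin and Tcf factors switch on in many tissues, were mostly higher: of 16 tested, 11 rose and 1 fell, with a median difference of 1.22 against 0.12 over all features. With genes that were below background in WT set to their bounds, the median was 1.04, and under normexp background correction it was 0.75. Sp5, a transcription factor and direct Wnt target, read 0.3, -0.61, -0.75 and 0.11 in WT livers and 2.92, 2.6, 2.83 and 3.3 in mutant livers. Its difference of 3.15 ± 0.27 (adjusted p = 9.9e-05) was matched by 3.19 on slide 4, and the 4 mutant livers lay close together. Lgr5, the R-spondin receptor, read 1.25, 0.48, 0.62 and 0.96 against 2.98, 3.13, 2.96 and 3.15, a difference of 2.22 ± 0.19 (adjusted p = 8.54e-05, slide 4 difference 2.19). Again no mutant liver overlapped a WT liver. Axin2, a scaffold of the destruction complex that feeds back on the signal, was well above background on 1 of 4 WT and 4 of 4 mutant arrays and differed by 2.68 ± 0.64 (adjusted p = 0.00979, slide 4 difference 1.89). Wif1, a secreted Wnt inhibitor, differed by 3.83 ± 1.04 (adjusted p = 0.0168, slide 4 difference 1.62), and by 4.8 without WT liver 4 and 4.52 without mutant liver 1. It was well above background on 2 of 4 WT arrays. Notum, which inactivates Wnt proteins, and Ccnd1, the cyclin D1 gene, did not pass the test: Notum differed by 0.31 ± 0.17 (adjusted p = 0.165) and Ccnd1 by -1 ± 0.4 (adjusted p = 0.0707), with a slide 4 difference of 0.19 against -1.6 on the first scan day. Of the 11 calls, 4 held under the slide block.

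Few genes of the machinery that carries the signal were called. Of 13 tested genes for β-catenin, its destruction complex and the Tcf factors, limma called 0 higher (1 at an unadjusted p under 0.05) and 3 lower (23.1%), with a median of -0.18. Over all features 25.7% were higher and 18.3% lower. Leaving out mutant liver 4, normexp background correction and the scan day block each gave 1 higher, and 0 of the 3 falls held under the slide block (3 at an unadjusted p under 0.05). Tcf7l1, a Tcf factor that mostly represses, fell by 1.82 ± 0.24 on the log2 scale (adjusted p = 0.000676, slide 4 difference -1.09). Tcf7l2 differed by -1.14 ± 0.15 (adjusted p = 0.000653, slide 4 difference -0.92) on the probe used and by -0.33 on its other probe. Apc, a scaffold of the destruction complex, differed by -0.6 ± 0.16 (adjusted p = 0.0142, slide 4 difference -0.87).

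Perivenous hepatocyte genes rose more often than they fell: of 20 tested, 11 were higher and 2 lower, with a median of 0.53. Oat, the mitochondrial ornithine aminotransferase, read 4.54, 4.15, 4.72 and 5.17 in WT livers and 8.62, 9.12, 9.29 and 8.81 in mutant livers, a difference of 4.31 ± 0.24 (adjusted p = 2.09e-05, slide 4 difference 3.64). Rhbg, an ammonia transporter, read 3.48, 3.43, 3.18 and 3.61 against 7.13, 7.19, 7.78 and 6.87, a difference of 3.82 ± 0.21 (adjusted p = 1.71e-05, slide 4 difference 3.26). In both genes each mutant liver stood more than 3 units above every WT liver. Slc1a2, the glutamate transporter of perivenous cells, differed by 3.45 ± 0.31 (adjusted p = 0.000115) and Slc22a3, an organic cation transporter, by 5.27 ± 0.31 (adjusted p = 2.48e-05). Slc22a3 was well above background on 2 of 4 WT arrays. Glul, the glutamine synthetase that defines the cells next to the central vein, was added after its values were seen: it read 6.65, 6.37, 6.32 and 7.24 against 7.13, 7.82, 8.48 and 8.04, a difference of 1.22 ± 0.31 (adjusted p = 0.0137, slide 4 difference 0.8). WT liver 4 was above mutant liver 1, so the Glul groups overlapped. Cyp2e1, a perivenous cytochrome P450, did not pass the test (0.23 ± 0.2, adjusted p = 0.386). Cyp1a2, another one, was called higher (1.64 ± 0.47, adjusted p = 0.0216) but differed by -0.47 on slide 4, where WT liver 4 was the highest WT liver, and lost its call without WT liver 1 or 2 or mutant liver 2 or 3. Of the 11 rises, 5 held under the slide block.

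Periportal genes fell more often than they rose. Of 21 tested, 4 were higher and 8 lower, with a median of -0.62. Cyp2f2, a cytochrome P450 that marks periportal hepatocytes, read 8.83, 8.55, 8.44 and 9.25 in WT livers and 0.31, 1.34, 0.53 and 4.66 in mutant livers, a difference of -7.06 ± 0.87 (adjusted p = 0.000494, slide 4 difference -4.59). Mutant liver 4 was the highest of its group, and without it the Cyp2f2 difference was -8.04. Hsd17b6, a steroid dehydrogenase, fell by 5.28 ± 0.62 on the log2 scale (adjusted p = 0.000397), and by 4.67 without mutant liver 3. The urea cycle enzymes Ass1 (1.44 ± 0.19, adjusted p = 0.000622, slide 4 difference 1.27) and Asl (1.94 ± 0.25, adjusted p = 0.000571, slide 4 difference 1.22) were higher in all 4 mutant livers. Of the 8 falls, 2 held under the slide block, and of the 4 rises 0 (2 at an unadjusted p under 0.05). Alb, the albumin gene and a marker of all hepatocytes, differed by -0.3 ± 0.16 (adjusted p = 0.167), and by -0.44 (adjusted p = 0.0384) with arrays scaled on the probes detected on all arrays.

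**Figure D2:**
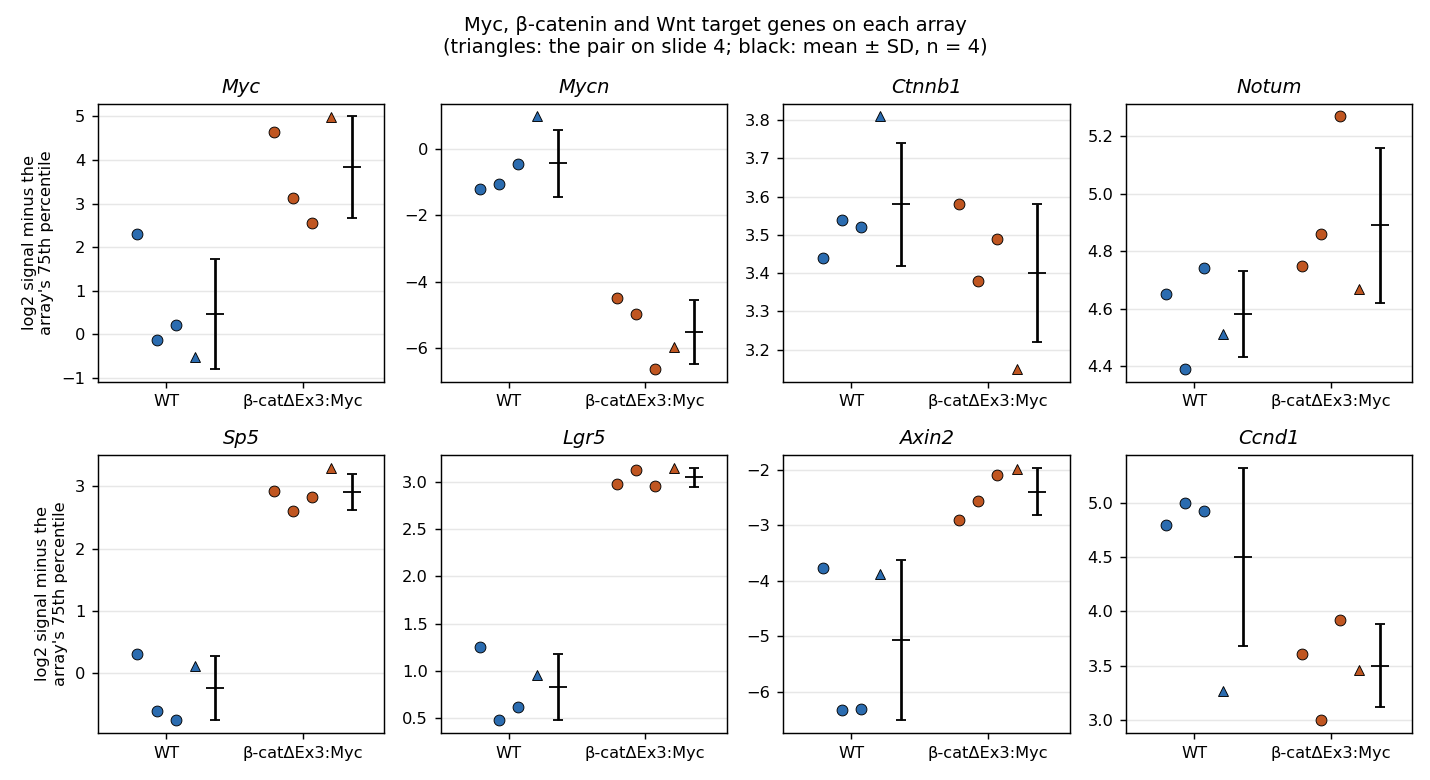
Relative signal (log2 signal minus the array's 75th percentile) of 8 genes in each of the 4 WT and 4 β-catΔEx3:Myc livers, with triangles for the slide 4 pair and black bars for the mean ± SD. Sp5 and Lgr5 separate the groups, while WT liver 1 is the highest WT liver for Myc at 2.3 and WT liver 4 is low for Ccnd1 at 3.27.

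Within the Myc, Max and Mxd network, 4 of 12 tested genes were higher (33.3%) and 2 lower (16.7%), with a median of 0.09. These shares were near those over all features, 25.7% higher and 18.3% lower. Mycn, the N-Myc gene, was the counterpart of Myc: it read -1.2, -1.05, -0.44 and 0.99 in WT livers and was not well above background in any mutant liver, at least 15.5-fold lower (adjusted p = 0.000389). Where a gene was below background in every liver of a group, as here, the fold is a lower bound against the dimmest probes detected on each array. The bound holds only for this background handling. Under normexp background correction with an offset of 50, the fold was smaller than the bound for every gene given one here, and 3.88 for Mycn. Max, the partner of Myc, differed by 0.69 ± 0.16 (adjusted p = 0.00832, slide 4 difference 1.02), and Mnt, a repressor that competes for Max, by 1.45 ± 0.24 (adjusted p = 0.00183, slide 4 difference 0.65). Mlxipl, the glucose-sensing factor ChREBP, fell by 1.8 ± 0.19 on the log2 scale (adjusted p = 0.000239, slide 4 difference -2.1). The falls of Mycn and Mlxipl held under the slide block, and 0 of the 4 rises did (2 at an unadjusted p under 0.05).

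Ribosome biogenesis genes, which build and process ribosomal RNA, rose as a group: 23 of 40 were higher and 0 lower by limma (0 also at an unadjusted p under 0.05), with a median of 0.63. Quantile normalization, the deposited values and the scaling on probes detected on all arrays gave 1 lower each. Nhp2, a core protein of the particles that pseudouridylate RNA, read 4.93, 4.48, 4.46 and 4.71 in WT livers and 6.62, 6.27, 6.31 and 6.68 in mutant livers, a difference of 1.82 ± 0.16 (adjusted p = 0.000123, slide 4 difference 1.97). Ncl, the nucleolar protein nucleolin, read 4.58, 4.49, 4.57 and 4.52 against 5.97, 6.07, 5.72 and 5.92, a difference of 1.38 ± 0.12 (adjusted p = 0.000116, slide 4 difference 1.41). The WT livers lay close together in both genes, and every mutant liver stood well above them. Noc2l, Mrto4 and Npm1, which act in pre-ribosome assembly and in the nucleolus, differed by 1.28, 1.15 and 1.12. Heatr1, a processome component, did not pass the test (0.23 ± 0.18, adjusted p = 0.322). Of the 23 rises, 6 were at least 2-fold, 3 held under the slide block (19 at an unadjusted p under 0.05), and on the first scan day alone 15 of the list were called.

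The E-box that Myc and Max bind, CACGTG, was searched on both strands in the window from 250 bases before to 50 after each start site in the RefSeq promoter table (GRCm38.p6). It stood in 7.15% of all 32851 promoters, in 11.3% of 10985 tested genes with a promoter entry, in 13.7% of 2693 genes called higher, in 9.05% of 2277 called lower and in 11% of 6015 not called, where a gene counted if any of its promoter entries held the motif. Of 21 ribosome biogenesis genes called higher with an entry, 5 (23.8%) held it, namely Nop2, Pes1, Wdr43, Pno1 and Imp4, and of 14 not called 2 did. Of 7 nucleotide and polyamine synthesis genes called higher 1 held it (14.3%) and of 17 not called 5 did (29.4%). Of 9 aminoacyl-tRNA synthetase genes called higher 3 held it (33.3%), as did the 1 called lower with an entry, and of 3 not called 0 did. Of 18 respiratory chain genes called higher 1 did (5.56%), and Cdk4 was the 1 holder among 32 DNA replication and mitosis genes tested with an entry (3.12%). The promoters of 3 called genes of the growth lists are shown as examples of the motif before the start, not as typical of their lists. Each line gives 100 bases 5′ to 3′ on the gene's strand, with the E-box in capitals: Nop2 (an rRNA methyltransferase) at chr6:125131776-125131875, Imp4 (a processome protein) at chr1:34439661-34439760 and Cdk4 (the cyclin D kinase, with 4 E-boxes in the window searched) at chr10:127063316-127063415, all on the + strand.
Nop2: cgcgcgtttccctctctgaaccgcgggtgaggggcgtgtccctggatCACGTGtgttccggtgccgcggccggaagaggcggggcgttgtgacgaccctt
Imp4: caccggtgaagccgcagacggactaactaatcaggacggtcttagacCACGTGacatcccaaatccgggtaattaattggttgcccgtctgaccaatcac
Cdk4: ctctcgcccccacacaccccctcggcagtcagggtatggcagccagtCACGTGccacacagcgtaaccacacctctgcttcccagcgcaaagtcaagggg
Nop2 differed by 0.86 ± 0.19 (adjusted p = 0.00692, slide 4 difference 1.29), Imp4 by 0.57 ± 0.17 (adjusted p = 0.0244, slide 4 difference 0.34) and Cdk4 by 0.67 ± 0.14 (adjusted p = 0.00606, slide 4 difference 0.74). Nop2, Imp4 and the other 3 named for the motif were picked with their values known, and Imp4 lost its call without WT liver 2 or 3 or mutant liver 1. A match describes these letters only and is no measurement of binding.

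Nucleotide and polyamine synthesis moved less evenly: 9 of 31 tested genes were higher (29%) and 3 lower (9.68%), with a median of 0.36. The share of rises was near the 25.7% of all features, of which 18.3% were lower. Ctps, which makes CTP, read 1.73, 1.84, 2.09 and 1.37 in WT livers and 4.72, 4.46, 4.31 and 4.73 in mutant livers, a difference of 2.8 ± 0.19 (adjusted p = 3.49e-05, slide 4 difference 3.36). Mthfd1l, a mitochondrial folate enzyme, differed by 2.77 ± 0.17 (adjusted p = 2.68e-05, slide 4 difference 3). Pfas and Adsl, steps of purine synthesis, and Srm, the spermidine synthase, were 1.7, 1.65 and 1.42 higher. Tk1, the thymidine kinase of DNA precursor supply, went the other way, at -0.89 ± 0.24 (adjusted p = 0.0158). Of the 9 rises, 5 held under the slide block, and of the 3 falls 0 (1 at an unadjusted p under 0.05).

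Aminoacyl-tRNA synthetases, which charge tRNAs, were higher in 11 and lower in 2 of 20 tested, with a median of 0.5. Gars (glycine) differed by 1.27 ± 0.18 (adjusted p = 0.000917, slide 4 difference 1.11) and Vars (valine) by 1.18 ± 0.17 (adjusted p = 0.00103, slide 4 difference 1.38). Tars (threonine) fell by 1.26 ± 0.13 (adjusted p = 0.000251) and Cars (cysteine) by 0.95 ± 0.19 (adjusted p = 0.0046), both on the log2 scale. The other rises were small: 2 of the list were called higher without WT liver 2, 4 without WT liver 3, 6 without mutant liver 2, 7 without mutant liver 1, 4 under median scaling, 5 with the percentile of probes detected on all arrays, 6 without the filter on dim probes, 5 on the first scan day alone and 1 under the slide block.

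Genes of the respiratory chain and its supply rose in 24 of 28 tested, with 0 lower by limma (0 also at an unadjusted p under 0.05) and a median of 0.68. The median was 0.42 under quantile normalization, 0.43 with the deposited values and 0.73 under normexp background correction. Uqcrc1, a core subunit of complex III, read 4.73, 4.51, 4.69 and 4.75 in WT livers and 5.81, 5.98, 6.02 and 5.51 in mutant livers, a difference of 1.16 ± 0.15 (adjusted p = 0.000618, slide 4 difference 0.77). Ndufv1, of complex I, differed by 1.11 ± 0.16 (adjusted p = 0.000898, slide 4 difference 0.76). Ppargc1a, the coactivator that drives mitochondrial genes, rose by 2.37 ± 0.36 (adjusted p = 0.00127, slide 4 difference 2.27), whereas Tfam, the mitochondrial DNA factor, did not pass the test (0.09 ± 0.15, adjusted p = 0.664). All 24 were higher on slide 4 too, but 0 of them were called under the slide block (3 at an unadjusted p under 0.05).

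DNA replication and mitosis genes did not move as a group: 6 of 40 were higher and 4 lower, with a median of 0.17. Mcm10, a replication initiation factor, fell from 4.62, 4.21, 4.62 and 5.62 in WT livers to 1.52, -0.03, 1.13 and 1.49 in mutant livers, by 3.74 ± 0.41 on the log2 scale (adjusted p = 0.000294, slide 4 difference -4.13). It was the largest called change of the list, and the groups did not overlap. Pcna, the polymerase clamp, was 0.56 ± 0.15 higher (adjusted p = 0.0152, slide 4 difference 0.89), at adjusted p = 0.0625 under the scaling on probes detected on all arrays, while Mcm6 (0.54 ± 0.31, adjusted p = 0.19) did not pass. Birc5, a mitosis gene, varied within groups, from 2.2 to 3.82 in WT and from 1.9 to 4.54 in mutant livers. Under that scaling 2 of the list were higher, 2 on the first scan day alone, and 1 of the 6 rises and 1 of the 4 falls held under the slide block.

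Targets of p53 and cell cycle brakes were higher in 10 of 18 tested and lower in 0 by limma (1 at an unadjusted p under 0.05), with a median of 0.66. Cdkn1a, the inhibitor p21, read 1.21, 1.39, 0.52 and -0.96 in WT livers and 2.29, 2.75, 2.13 and 2.78 in mutant livers, a difference of 1.95 ± 0.48 (adjusted p = 0.0113, slide 4 difference 3.74). Gdf15, a stress cytokine, differed by 2.73 ± 0.54 (adjusted p = 0.00413, slide 4 difference 2.63). The death receptor Tnfrsf10b (1.53 ± 0.37, adjusted p = 0.00977) and the apoptosis gene Bbc3 (1.33 ± 0.36, adjusted p = 0.0175) were higher, and Bax, another apoptosis gene, did not pass (0.24 ± 0.19, adjusted p = 0.342). Of the 10 rises, 3 held under the slide block, and 6 of the list were called under the scaling on probes detected on all arrays. That scaling, median scaling, the filter for all arrays of a group, the first scan day alone and leaving out mutant liver 4 gave 1 lower each.

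Fetal liver and hepatoblast genes rose, with 15 of 28 tested higher and 2 lower and a median of 1.53, or 0.99 under normexp background correction. Afp, the α-fetoprotein gene, read 4.76, 0.69, 0.55 and 3.26 in WT livers and 9.6, 9.04, 8.21 and 9.39 in mutant livers, a difference of 6.74 ± 0.91 (adjusted p = 0.000741, slide 4 difference 6.13). The WT livers themselves spread over more than 4 units of Afp, and the difference was 7.56 without WT liver 1 and 6.16 without WT liver 3. Dppa5a, a pluripotency gene, was below background in every WT liver and at least 30.2-fold higher in mutant livers (adjusted p = 3.28e-05). Bex1, a small adaptor protein of immature cells, read -2.3, -2.65, -2.55 and -1.56 against 5, 5.19, 0.97 and 5.33, a difference of 6.39 ± 0.92 (adjusted p = 0.000983, slide 4 difference 6.89), or 7.44 without mutant liver 3. Igf2bp2, an RNA-binding protein of the fetal growth family, fell by 1.47 ± 0.26 on the log2 scale (adjusted p = 0.0026, slide 4 difference -1.5). Of the 2 falls, 0 held under the slide block (1 at an unadjusted p under 0.05).

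Several imprinted genes varied between mutant livers. Of 16 imprinted growth genes tested, 7 were higher and 3 lower, with a median of 1.01, and 4 and 2 held under the slide block. Igf2, the fetal growth factor, read -2.1, -5.66, -6.18 and -5.99 in WT livers and 1.89, 2.72, -2.6 and 3.26 in mutant livers. Mutant liver 3 was thus below WT liver 1 for Igf2, the other 3 mutant livers stood above every WT liver, and the difference was 6.3 ± 1.39 (adjusted p = 0.00686, slide 4 difference 9.24). Igf2 was well above background in 1 of the 4 WT livers, and its difference was 7.61 without mutant liver 3 and 5.65 without mutant liver 4. H19, the imprinted RNA that neighbours Igf2, read 3.69, 1.32, 2.3 and 1.36 against 8.39, 8.81, 4.86 and 9.23, with mutant liver 3 again lowest of its group, and differed by 5.65 ± 0.97 (adjusted p = 0.00225, slide 4 difference 7.87), or 6.64 without mutant liver 3. Dlk1, Meg3 and Mirg, which lie together in another imprinted cluster, were lowest among mutant livers in liver 3 as well (-1.69, 3.27 and -1.33). Dlk1, an inhibitor of differentiation, differed by 6.37 ± 1.49 (adjusted p = 0.00878), or 7.04 without WT liver 1, 5.65 without WT liver 2, 7.83 without mutant liver 3 and 5.5 without mutant liver 4. The RNA Meg3 differed by 5.31 ± 0.81 (adjusted p = 0.00133; 5.96 without mutant liver 3 and 4.72 without mutant liver 4) and Mirg by 4.11 ± 0.78 (4.84 and 3.41). Mest, another imprinted gene of fetal growth, moved the other way and fell by 2.41 ± 0.29 on the log2 scale (adjusted p = 0.000429, slide 4 difference -2.1).

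Nrf2 targets, the genes of glutathione use and detoxification that the transcription factor Nrf2 (Nfe2l2) controls, rose far more often than they fell. Of 40 tested, 28 were higher and 4 lower, with a median of 1.99 against 0.12 over all features. Gsta1, a glutathione S-transferase, had the largest called rise of any gene with a symbol: it read -1.18, -1.19, -3.18 and 0.19 in WT livers and 9.47, 9.42, 10.06 and 8.32 in mutant livers. The difference was 10.66 ± 0.67, or 1610-fold (adjusted p = 2.9e-05, slide 4 difference 8.13), and 10.04 without WT liver 3. Gsta2 (7.56 ± 0.52, adjusted p = 4.02e-05) and Gm10639, another member of that family (9.19 ± 0.5, adjusted p = 1.78e-05), are near copies, and their probes may read each other's transcripts. The carbonyl reductase Cbr3 read -0.13, 0.16, 0.02 and -0.21 against 8.46, 8.06, 8.58 and 4.47, a difference of 7.43 ± 0.83 (adjusted p = 0.000323, slide 4 difference 4.68), or 8.41 without mutant liver 4. Mutant liver 4 was also the lowest of its group for the peroxidase Gpx2 (2.8 against 3.75 to 5.99), the exporter Abcc4 (3.94 against 5.39 to 6.53) and the cystine carrier Slc7a11 (-4.11 against 1.08 to 2.46), so the slide 4 pair gives smaller differences for them. Gpx2 differed by 6.9 ± 0.68 (adjusted p = 0.000176), or 7.5 without mutant liver 4. Slc7a11, below background in every WT liver, was at least 22.1-fold higher in the mean of the mutant livers (adjusted p = 0.00355). This fold does not hold for mutant liver 4, where Slc7a11 lay below the dimmest probe detected on that array (-4.11 against -3.92).

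Other members followed at smaller sizes, and Srxn1, Ugdh, Txnrd1, Gclm and Tkt were named after their values were seen. Srxn1, which repairs oxidized peroxiredoxins, differed by 4.32 ± 0.25 (adjusted p = 2.48e-05, slide 4 difference 3.89) and Ugdh, which makes UDP-glucuronic acid, by 3.25 ± 0.21 (adjusted p = 2.94e-05, slide 4 difference 2.56). Txnrd1, the thioredoxin reductase, differed by 1.51 ± 0.2 (adjusted p = 0.000712, slide 4 difference 0.88). Gclm and Gstp1 were called higher but went the other way on slide 4: Gclm, a subunit of glutathione synthesis, by 0.88 ± 0.29 (adjusted p = 0.0376) with -0.26 on slide 4, and Gstp1 by 1.86 ± 0.57 (adjusted p = 0.0276) with -0.57. Both lost the call without WT liver 1, 2 or 3 or mutant liver 1, 2 or 3. Tkt, the transketolase of the pentose phosphate pathway, was higher by 0.57 ± 0.19 (adjusted p = 0.0358) with a slide 4 difference of 0, and lost its call without 5 of the 8 arrays, each left out in turn. Akr1b8, an aldo-keto reductase, fell by 1.86 ± 0.25 on the log2 scale (adjusted p = 0.000732, slide 4 difference -1.35), and Mgst1, a microsomal transferase, did not pass the test (-0.02 ± 0.22, adjusted p = 0.953). Nfe2l2 itself lay at 3.92 to 4.96 in WT and 3.56 to 4.44 in mutant livers (-0.34 ± 0.28, adjusted p = 0.36). Of the 28 rises, 14 held under the slide block, and of the 4 falls 0 (3 at an unadjusted p under 0.05).

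**Figure D3:**
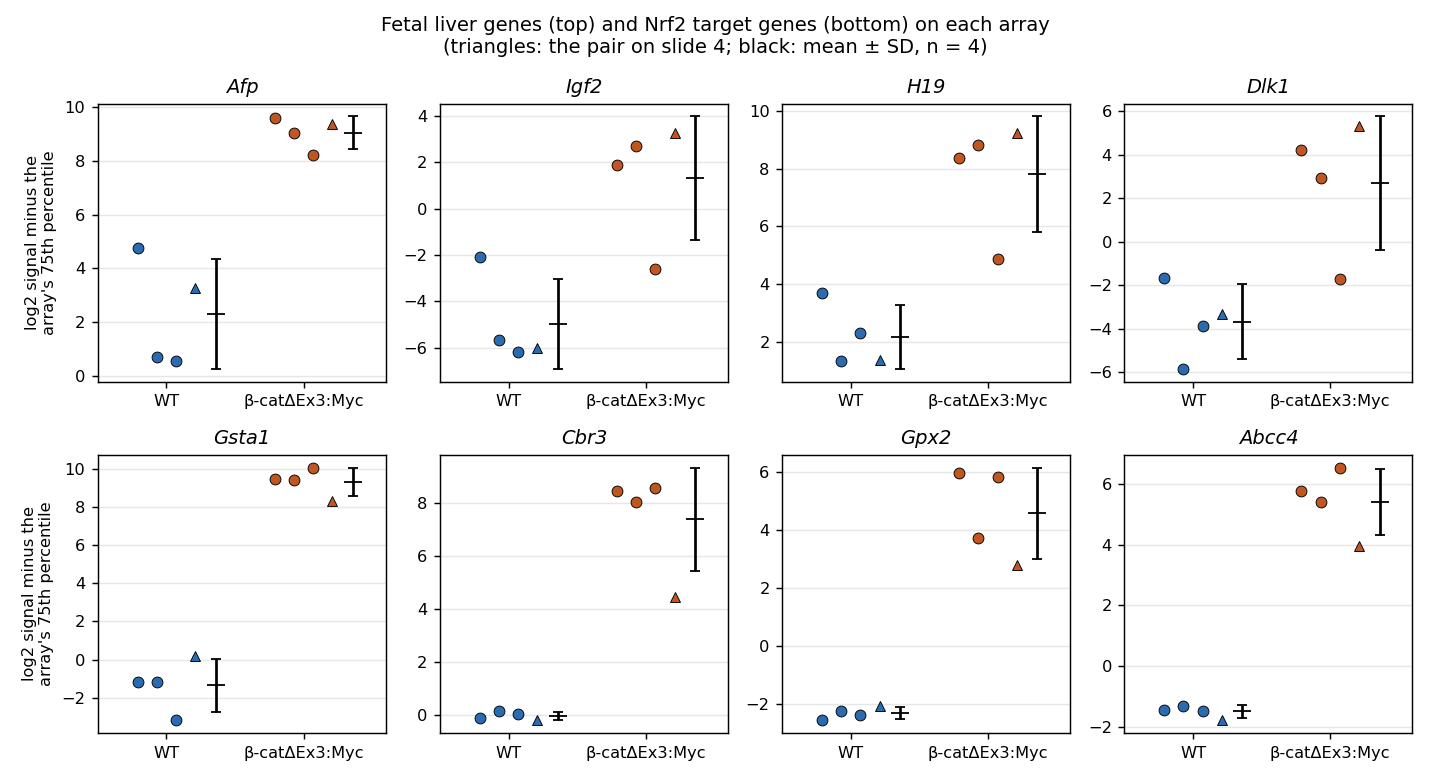
Relative signal (log2 signal minus the array's 75th percentile) of 4 fetal liver genes (top) and 4 Nrf2 targets (bottom) in each of the 4 WT and 4 β-catΔEx3:Myc livers, with triangles for the slide 4 pair and black bars for the mean ± SD. Mutant liver 3 sits low for Igf2 (-2.6), H19 (4.86) and Dlk1 (-1.69), and mutant liver 4 for Cbr3 (4.47) and Gpx2 (2.8).

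The core of the antioxidant response element that Nrf2 binds, TGACNNNGC, was searched in the same windows on both strands; this motif was chosen after the Nrf2 list had been seen to rise. It stood in 12.4% of all promoters, in 16.5% of tested genes with an entry, in 18% of genes called higher, in 7 of 23 Nrf2 targets called higher (30.4%) and in 4 of 8 not called. Its share was thus no larger among the called targets than among the few not called. Promoters of 4 called targets are printed as examples, with the core in capitals on either strand: Txnrd1 at chr10:82859068-82859167 (+), Abcc2 (the bile canalicular exporter) at chr19:43782164-43782263 (+), Abcc4 at chr14:118706220-118706319 (- strand) and Ugdh, with 2 cores, at chr5:65435921-65436020 (- strand).
Txnrd1: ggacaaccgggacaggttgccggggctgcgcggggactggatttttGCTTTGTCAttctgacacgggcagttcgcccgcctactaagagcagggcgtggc
Abcc2: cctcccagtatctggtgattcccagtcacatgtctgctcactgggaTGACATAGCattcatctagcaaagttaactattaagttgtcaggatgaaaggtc
Abcc4: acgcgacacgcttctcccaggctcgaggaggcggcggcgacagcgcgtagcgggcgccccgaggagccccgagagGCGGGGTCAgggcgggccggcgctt
Ugdh: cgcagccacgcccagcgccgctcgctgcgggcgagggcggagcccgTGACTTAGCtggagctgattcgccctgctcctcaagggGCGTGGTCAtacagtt
In the data Abcc4 rose by 6.9 ± 0.48 (adjusted p = 4.08e-05, slide 4 difference 5.72) and Abcc2 by 2.12 ± 0.29 (adjusted p = 0.000804, slide 4 difference 1.02).

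Among the other highest genes was Sult1e1, the estrogen sulfotransferase and a female-biased liver gene. It read -5.25, -1.9, -2.6 and -1.21 in WT livers and 5.71, 8.24, 5.83 and 8.19 in mutant livers, a difference of 9.73 ± 0.96 (adjusted p = 0.000181, slide 4 difference 9.4), or 8.9 without WT liver 1. Mgst2, a microsomal glutathione transferase, rose by 7.33 ± 0.57 (adjusted p = 6.38e-05) and Elovl7, a fatty acid elongase, by 6.98 ± 0.52 (adjusted p = 5.6e-05). Sema3b, a secreted semaphorin, rose by 7 ± 0.35 and Fndc10, a membrane protein, by 7.03 ± 0.23 (adjusted p = 1.17e-05 and 2.56e-06). Lrtm2, a leucine-rich repeat protein, and Ggt1, the γ-glutamyltransferase of bile duct and fetal liver, were below background in every WT liver and at least 65.7-fold and 29.7-fold higher. In all of these the 4 mutant livers stood above the 4 WT livers, and the slide 4 pair had the same direction.

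Male-biased liver genes fell more often than they rose. Of 24 male-biased genes tested, 14 were lower and 1 higher, with a median of -3.18, or -1.89 under normexp background correction. Serpina4-ps1, a serpin pseudogene transcript of male liver, read 7.58, 7.98, 7.96 and 7.73 in WT livers, was below background in every mutant liver and so was at least 4680-fold lower (adjusted p = 3.89e-09). Under normexp background correction it was 855-fold lower. Hsd3b5, a male-specific steroid dehydrogenase, read 5.77, 3.6, 2.64 and 7.52 against -3.61, -4.51, -3.91 and -5.12, a difference of -9.17 ± 0.97 (adjusted p = 0.000243, slide 4 difference -12.64), or -8.29 without WT liver 4 and -9.92 without WT liver 3. It was well above background in 2 of 4 mutant livers. In mutant liver 4 it lay below the dimmest probe detected on that array (-3.92), so the size of its slide 4 difference rests on a reading below background. Among WT livers Hsd3b5 was highest in livers 1 and 4, the same livers in which Mup2 and Mup19 were highest. All 14 falls held under the slide block.

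Major urinary proteins, pheromone carriers that the male liver secretes into blood and urine, made up 6 of the 15 genes with the largest falls. Mup2 read 9.64, 7.91, 7.7 and 10.42 in WT livers and -0.44, -1.41, 0.06 and 0.3 in mutant livers, a difference of -9.29 ± 0.65 (adjusted p = 4.28e-05, slide 4 difference -10.12). Mup19 read 10.6, 9.33, 9.15 and 10.89 against 1.49, -0.02, 2.58 and 2.1, a difference of -8.45 ± 0.61 (adjusted p = 5.04e-05, slide 4 difference -8.79). Mup3, Mup5, Mup17 and Mup18 differed by -7.9 to -8.88, with Mup5 at -9.48 without WT liver 3, -8.13 without WT liver 4 and -8.21 without mutant liver 2, and Mup17 at -7.3 without mutant liver 2. These genes are near-identical copies, and their probes may read several of them. The esterases Ces3b and Ces3a differed by -8.3 and -7.23, the sulfotransferase Sult5a1 was at least 97.1-fold lower, and the uptake transporter Slco1a1 fell by 6.87 ± 0.64 on the log2 scale (adjusted p = 0.00014, slide 4 difference -8.38). Wfdc21, a small secreted protein, fell by 8.71 ± 0.63, and by 9.39 without mutant liver 4.

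Female-biased genes changed in both directions. Of 23 tested, 6 were higher (26.1%) and 3 lower (13%), with a median of -0.18. These shares were near those over all features, 25.7% higher and 18.3% lower. Sult1e1, described above, was the highest of the list. Sult2a1, a bile acid and steroid sulfotransferase, read 1.92, 6.01, 6.17 and -0.09 in WT livers and 8.17, 7.97, 8.53 and 9.05 in mutant livers, a difference of 4.93 ± 1.32 (adjusted p = 0.0165, slide 4 difference 9.14), or 5.76, 5.82 and 3.73 without WT liver 2, 3 or 4. Fmo2, a monooxygenase, Tox, a chromatin factor, and Cyp2a4, a steroid hydroxylase, were 2.3, 1.82 and 1.73 higher. A1bg and Hao2 were called lower (adjusted p = 0.0243 and 0.00938) but did not differ in that direction on slide 4. A1bg, a plasma protein, read -0.65, 3.21, 2.54 and -6.21 in WT livers, so that WT liver 4 was as low as the mutant livers (-6.64 to -6.04), and Hao2, a peroxisomal oxidase, read 3.19, 3.79, 4.13 and -1.04 against -1.88, -2.93, -2.48 and -0.9. Their slide 4 differences were 0.17 and 0.14. A1bg lost its call without WT liver 2 or 3 or mutant liver 1, 2 or 3, and Hao2 differed by -4.57 ± 1.08, or -5.75 without WT liver 4. Without WT liver 4, 8 of the list were lower, and of the 6 rises 2 held under the slide block. The age of 6 livers is known only as a range, so the relation of age to these genes was not tested.

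The growth hormone and IGF axis, through which the pituitary sets the liver's sex pattern and growth factor output, was lower in 10 of 20 tested genes and higher in 3, with a median of -0.56. Igf1 read 7.46, 7.63, 7.41 and 7.37 in WT livers and 2.81, 3.01, 2.79 and 2.34 in mutant livers, a difference of -4.73 ± 0.17 (adjusted p = 2.6e-06, slide 4 difference -5.03), and its 4 probes gave -5.16 to -4.64. Igfals, which holds IGF1 in the circulation, fell by 4.69 ± 0.2 (adjusted p = 7.29e-06, slide 4 difference -4.44) and Igfbp3, its partner, by 2.85 ± 0.26 (adjusted p = 0.00012), both on the log2 scale. Socs2, a feedback target of Stat5, read 4.27, 3.38, 4.13 and 2.21 against 0.9, 0.63, 1.76 and -0.96, a difference of -2.92 ± 0.63 (adjusted p = 0.00633, slide 4 difference -3.17). Igfbp1, a binding protein induced in fasting, rose by 1.98 ± 0.39 (adjusted p = 0.00431, slide 4 difference 2.01). Stat5b, the factor that growth hormone activates, did not pass the test (-0.18 ± 0.19, adjusted p = 0.476). Of the 10 falls, 6 held under the slide block, and of the 3 rises 0 (0 also at an unadjusted p under 0.05).

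**Figure D4:**
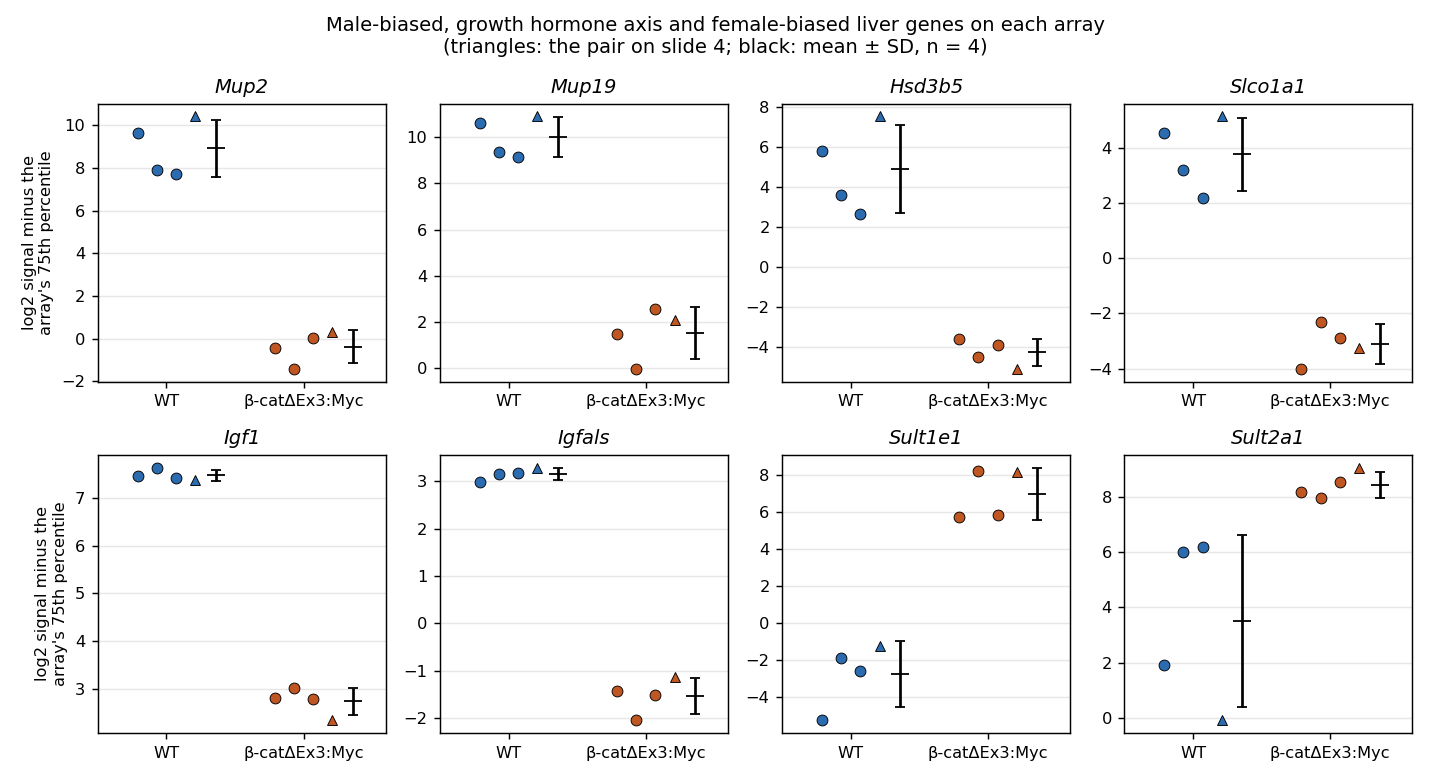
Relative signal (log2 signal minus the array's 75th percentile) of male-biased, growth hormone axis and female-biased genes in each of the 4 WT and 4 β-catΔEx3:Myc livers, with triangles for the slide 4 pair and black bars for the mean ± SD. Igf1 separates the groups by more than 4 units with little spread, while the WT livers spread from -0.09 to 6.17 for Sult2a1.

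Transcription factors of hepatocyte identity changed in both directions: 5 of 27 tested were higher and 9 lower, with a median of -0.26. Onecut1, a factor of hepatoblasts and bile duct, read -0.34, 0.65, 1.28 and -1.52 in WT livers and -4.74, -4.94, -4.23 and -4.82 in mutant livers, a difference of -4.7 ± 0.54 (adjusted p = 0.000361, slide 4 difference -3.3). It was well above background in 1 of 4 mutant livers. Foxa3 (-1.34 ± 0.21), the bile acid receptor Nr1h4 (-1.17 ± 0.15) and the fatty acid receptor Ppara (-0.98 ± 0.15) were lower (adjusted p = 0.00149, 0.000673 and 0.00118), and Gata6 (1.12 ± 0.25) higher (adjusted p = 0.00694). Of the 5 rises, 0 held under the slide block (1 at an unadjusted p under 0.05), and of the 9 falls 2.

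Mature hepatocyte genes were lower in 8 and higher in 3 of 29 tested, with a median of -0.35. Ttr, transthyretin, read 9.42, 9.36, 9.28 and 9.48 in WT livers and 7.83, 7.88, 8.19 and 8.06 in mutant livers, a difference of -1.39 ± 0.13 (adjusted p = 0.000144, slide 4 difference -1.42). Apoa1, the main HDL protein, fell by 1.28 ± 0.12 on the log2 scale (adjusted p = 0.000124, slide 4 difference -1.42), while Apoa2, its companion, did not pass the test (-0.07 ± 0.15, adjusted p = 0.753). Serpina3k, a protease inhibitor, fell by 4.08 ± 0.21 (adjusted p = 1.35e-05) and Otc, a urea cycle enzyme, by 2.03 ± 0.23 (adjusted p = 0.000359). With arrays scaled on the probes detected on all arrays, 13 were lower, and 5 were higher without mutant liver 4. Of the 8 falls, 4 held under the slide block, and of the 3 rises 0 (1 at an unadjusted p under 0.05).

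Complement and coagulation genes, most of them made by hepatocytes and released into plasma, were lower in 32 of 39 tested and higher in 0 by limma (0 also at an unadjusted p under 0.05), with a median of -1.04. The late complement components fell furthest. C8a read 5.85, 5.21, 4.74 and 6.81 in WT livers and 1.15, 1.02, 0.93 and 2.97 in mutant livers, a difference of -4.13 ± 0.57 (adjusted p = 0.000801, slide 4 difference -3.84). C8b and C6 differed by -3.94 and -3.34, and C9 by -8 ± 0.99 (adjusted p = 0.000506, slide 4 difference -6.69). Mutant liver 4 was the only mutant liver in which C9 was well above background. C3, the central component, did not pass the test (-0.17 ± 0.13, adjusted p = 0.33). The 3 C1q genes of this list are macrophage genes and also stand in the macrophage list. Acute phase proteins were lower in 13 of 26 and higher in 4, with a median of -0.96. Among the falls were Steap4, at -3.37 ± 0.29 (adjusted p = 9.37e-05, slide 4 difference -2.52), and Itih4, at -2.53 ± 0.49 (adjusted p = 0.00389, slide 4 difference -1.49). Of the 4 rises, Lcn2, lipocalin 2, was the largest, at 3.37 ± 0.48 (adjusted p = 0.000928, slide 4 difference 4.75), and it also stands in the neutrophil list. Of the 32 falls in complement and coagulation 17 held under the slide block, and of the 13 in the acute phase 1.

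Fatty acid and triglyceride synthesis was lower in 17 of 27 tested genes and higher in 5, with a median of -1.15. Scd1, the stearoyl-CoA desaturase, read 8.54, 8.56, 8.91 and 7.16 in WT livers and 2.5, 2.04, 2.41 and 2.56 in mutant livers, a difference of -5.91 ± 0.36 (adjusted p = 2.66e-05, slide 4 difference -4.6). Srebf1, the regulator of fatty acid synthesis, read 2.3, 2.75, 2.96 and 3.34 against -0.32, -0.89, -1.46 and -0.3, a difference of -3.58 ± 0.31 (adjusted p = 0.000107, slide 4 difference -3.63). Pnpla3, a lipase that Srebf1 controls, fell by 4.77 ± 0.53 on the log2 scale (adjusted p = 0.000304). Against this, Pparg (2.53 ± 0.19, adjusted p = 5.95e-05, slide 4 difference 2.37), a nuclear receptor of fat storage, and the lipid droplet protein Cidec (3.8 ± 0.28, adjusted p = 5.08e-05, slide 4 difference 3.94) were higher in all 4 mutant livers. Of the 17 falls, 7 held under the slide block, and of the 5 rises 3.

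Cholesterol genes were higher in 8 (29.6%) and lower in 5 (18.5%) of 27 tested, near the 25.7% and 18.3% of all features. Their median of 0.25 became -0.01 under quantile normalization. Hmgcs1, an early step of the synthesis, rose by 1 ± 0.15 (adjusted p = 0.00116, slide 4 difference 1.03). Sc5d, a late step, fell by 1.64 ± 0.31 on the log2 scale (adjusted p = 0.00342, slide 4 difference -1.27). Of fatty acid oxidation and ketogenesis, 4 of 31 tested genes were higher (12.9%) and 5 lower (16.1%). The fatty acid carrier Fabp1 fell by 3.45 ± 0.56 on the log2 scale (adjusted p = 0.00178), or by 4.03 without mutant liver 4. Pdk4, which blocks pyruvate entry into the mitochondrion, rose from 0.5, 0.36, 0.33 and -0.16 to 4.74, 4.34, 4.12 and 4.25, by 4.11 ± 0.2 (adjusted p = 1.03e-05, slide 4 difference 4.41). The cholesterol list had 3 genes lower without WT liver 2, WT liver 3 or mutant liver 1, and the oxidation list 7 higher without WT liver 1 or mutant liver 4 and 9 lower under quantile normalization. Under the slide block 3 of the 8 and 0 of the 5 cholesterol calls (3 at an unadjusted p under 0.05) and 2 of the 4 and 1 of the 5 oxidation calls held.

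Glycolysis genes rose in 16 and fell in 6 of 29 tested, with a median of 0.7, and the isoforms of lactate dehydrogenase went opposite ways. Ldhb, the heart form of lactate dehydrogenase, read -0.17, -0.31, 0.27 and 0.55 in WT livers and 6.3, 6.88, 5.69 and 6.14 in mutant livers, a difference of 6.17 ± 0.29 (adjusted p = 1.01e-05, slide 4 difference 5.59), while Ldha, the form dominant in liver, differed by -0.68 ± 0.19 (adjusted p = 0.0203, slide 4 difference -0.18) and lost its call without WT liver 1 or mutant liver 2. The glucose transporter Slc2a1 rose by 3.25 ± 0.26 (adjusted p = 7.73e-05, slide 4 difference 2.15) and the aldolase Aldoa by 2.21 ± 0.2 (adjusted p = 0.000129, slide 4 difference 1.85). Hk2, a hexokinase low in adult liver, rose by 1.59 ± 0.39 (adjusted p = 0.0107, slide 4 difference 2.24). Pklr, the pyruvate kinase of liver, fell by 3.17 ± 0.21 on the log2 scale (adjusted p = 3.65e-05, slide 4 difference -3.1). Gluconeogenesis and glycogen genes were higher in 3 (18.8%) and lower in 4 (25%) of 16 tested, against 25.7% and 18.3% of all features. Fbp1 differed by -1.24 ± 0.13 (adjusted p = 0.000214) and Pck1 did not pass the test (-0.07 ± 0.4, adjusted p = 0.909). By limma 0 of these 3 rises (0 also at an unadjusted p under 0.05) and 2 of these 4 falls held under the slide block. Of the 16 rises in glycolysis 4 held under the slide block, and of the 6 falls 2.

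Amino acid breakdown and urea genes were higher in 17 and lower in 9 of 40 tested, with a median of 0.58. Cth, which makes cysteine from cystathionine, rose by 2.61 ± 0.26 (adjusted p = 0.000183, slide 4 difference 1.73) and Prodh, proline oxidase, by 1.92 ± 0.25 (adjusted p = 0.000596, slide 4 difference 1.16). Hal and Uroc1, enzymes of histidine breakdown, were lower, Hal at -2.51 ± 0.44 (adjusted p = 0.00242, slide 4 difference -2.34) and Uroc1 at -2.86 ± 0.73 (adjusted p = 0.0133; -2.18 without mutant liver 1). Of the 17 rises, 1 held under the slide block, and of the 9 falls 1.

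Genes of the amino acid and unfolded protein responses changed in both directions: 11 of 33 tested were higher and 14 lower, with a median of -0.41. Among the rises were the asparagine synthetase Asns, at 3.1, 1.22, 1.55 and 2.21 in WT livers and 7.13, 6.04, 5.69 and 6.76 in mutant livers (4.39 ± 0.46, adjusted p = 0.00023, slide 4 difference 4.56) and the serine synthesis enzyme Psat1, at 2.74 ± 0.48 (adjusted p = 0.00236, slide 4 difference 3.49). Among the falls were 3 genes of protein folding or disposal in the endoplasmic reticulum, Pdia6 at -1.43 ± 0.23 (adjusted p = 0.0018), Herpud1 at -1.34 ± 0.22 (adjusted p = 0.00196) and Sdf2l1 at -1.8 ± 0.2 (adjusted p = 0.000331). The falls were not confined to such genes: the largest called fall of the list was Chac1, and Atf5 was called lower too. Ddit3 and Trib3 were not called. Atf4 itself, the factor of the amino acid response, did not pass the test (0.15 ± 0.16, adjusted p = 0.475). Without WT liver 2 or WT liver 3, 7 were called higher, and 3 of the 11 rises and 1 of the 14 falls held under the slide block.

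Markers of cells other than hepatocytes moved strongly, and in these whole-tissue samples fewer cells of a type and less RNA per cell cannot be told apart. The linear relative signals of the defining markers of each type were summed per array. The 7 macrophage markers on the array were all lower in mutant livers, with a sum of 251 to 393 in WT and 18.9 to 70.1 in mutant livers. Endothelial markers summed to 127 to 146 against 36.4 to 52.6, and stellate cell markers to 46.4 to 115 against 32.2 to 52.3, where the groups overlapped. Lymphocyte markers (51.1 to 71 against 23.9 to 51.4) also overlapped slightly. Hepatocyte markers summed to 6490 to 8240 against 3470 to 5520, with 3 of 8 lower and 1 higher. Bile duct markers summed to 1.8 to 4.62 against 1.22 to 1.48, and Cftr, the defining chloride channel, was below background on every array. Of 5 bile duct markers tested, 1 was called lower and 0 higher, so a fall was called for 1 marker only. Megakaryocyte markers, 3 of 4 of them called higher, summed to 3 to 4.32 against 7.8 to 13.8. Neutrophil markers (8.97 to 14.2 against 10.1 to 96.1) and erythroid markers (605 to 1300 against 40.2 to 1020) spread most among the mutant livers. Of pancreatic acinar markers, 3 of 5 were below background on every array. The part of these cells in any gene difference was not tested.

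**Figure D5:**
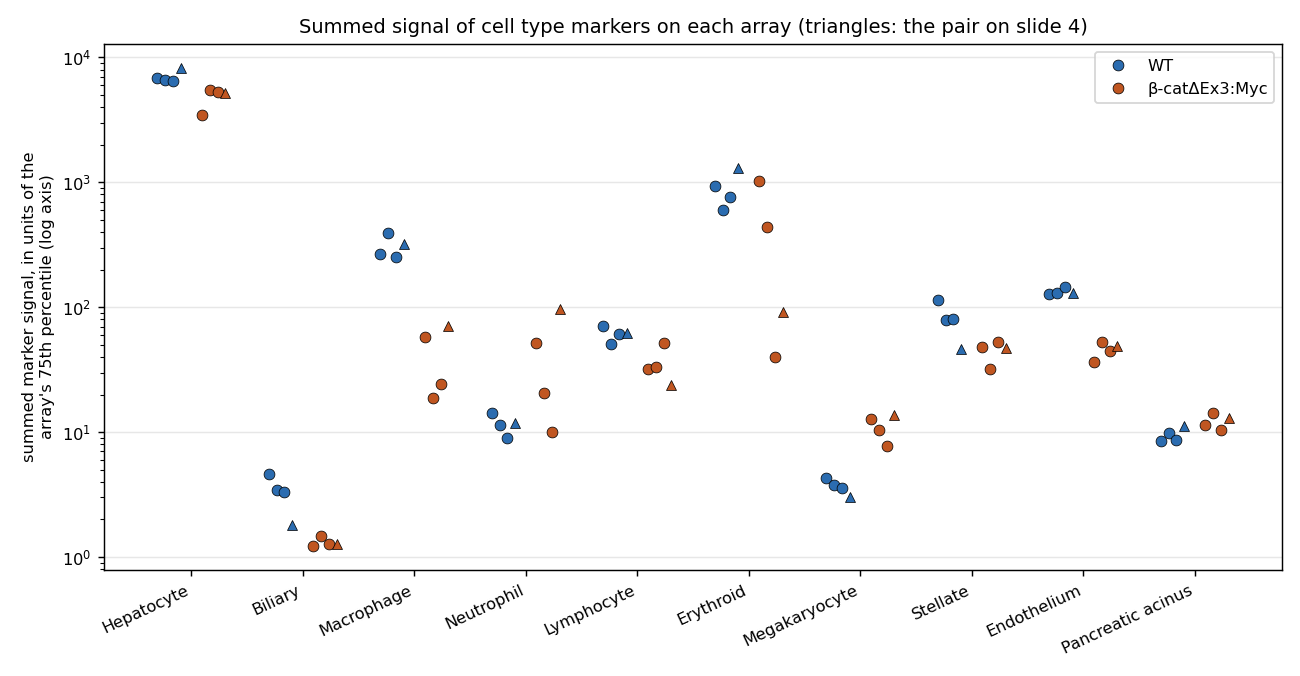
Summed linear signal of defining cell type markers, in units of the array's 75th percentile (log axis), in each of the 4 WT and 4 β-catΔEx3:Myc livers, with triangles for the slide 4 pair. Macrophage and endothelial sums separate the groups downward, megakaryocyte sums (3 to 4.32 against 7.8 to 13.8) upward, and erythroid and neutrophil sums spread widely among the mutant livers.

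In the longer macrophage list, 15 of 18 tested genes were lower and 2 higher, with a median of -2.88. Clec4f, a lectin of Kupffer cells, the resident macrophages of the liver, read 5.35, 5.69, 5.56 and 5.36 in WT livers and 2.72, 1.73, 2.2 and 2.98 in mutant livers, a difference of -3.08 ± 0.27 (adjusted p = 0.000101, slide 4 difference -2.38). Adgre1, which encodes F4/80, differed by -3.9 ± 0.54 (adjusted p = 0.000828, slide 4 difference -2.66) and Timd4, a phagocytic receptor, by -4.65 ± 0.77 (adjusted p = 0.00196), or -3.9 without mutant liver 2. Against the list, Gpnmb, a glycoprotein of lipid-laden macrophages, was below background in every WT liver and at least 22.4-fold higher (adjusted p = 3.18e-05, slide 4 difference 4.98), and Trem2, a lipid receptor of such cells, rose by 2.09 ± 0.34 (adjusted p = 0.00183, slide 4 difference 1.16). The macrophage falls kept their direction on slide 4 but 0 of the 15 were called under the slide block (8 at an unadjusted p under 0.05).

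Antigen presentation genes fell in 16 of 16 tested, with a median of -1.51. H2-Ab1, a chain of MHC class II, read 4.04, 6.16, 4.37 and 4.67 in WT livers and 1.62, -0.5, 1.16 and 2.17 in mutant livers, a difference of -3.7 ± 0.63 (adjusted p = 0.00222, slide 4 difference -2.5). Cd74, its invariant chain, differed by -3.03 ± 0.54 (adjusted p = 0.00256, slide 4 difference -2.48). In both genes WT liver 2 was highest and mutant liver 2 lowest. Interferon response genes were lower in 21 of 32 tested and higher in 1, with a median of -1.43. Iigp1, an interferon-induced GTPase, differed by -3.39 ± 0.43 (adjusted p = 0.000572, slide 4 difference -2.34), and Cxcl9, an interferon-γ chemokine, by -4.01 ± 0.85 (adjusted p = 0.00574, slide 4 difference -1.41), or -3.2 without WT liver 2. Usp18, which dampens the response, rose by 1.33 ± 0.25 (adjusted p = 0.00366, slide 4 difference 1.62), and Isg15 did not pass the test (-0.79 ± 0.45, adjusted p = 0.195). Both lists moved with the macrophage marker sum of 251 to 393 against 18.9 to 70.1, whose part was not tested, and under the slide block 0 of the 16 and 0 of the 21 falls held (6 and 5 at an unadjusted p under 0.05).

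Among inflammatory cytokines and chemokines 9 of 15 tested were lower and 1 higher, of which 2 and 1 held under the slide block; Il1b was at least 9.2-fold lower (adjusted p = 0.00141) and Cxcl12 fell by 1.81 ± 0.22 on the log2 scale (adjusted p = 0.000442, slide 4 difference -1.18). Lymphocyte markers were lower in 10 of 16 tested and higher in 2, with a median of -2.34. It was -1.79 with genes below background at their bounds and -0.83 under normexp background correction. The B cell genes Ms4a1, which encodes CD20, at least 6.78-fold lower, and Cd79b (-2.69 ± 0.37, adjusted p = 0.000786, slide 4 difference -2.07) fell. The T cell genes Cd3g, Cd3d, Lck and Cd4 were called lower too. Cd3e, another T cell gene, differed by 0.86 ± 0.29 (adjusted p = 0.0402, slide 4 difference 0.21) and lost its call without any 1 of 7 arrays, mutant liver 4 being the exception. Of the 10 falls, 0 held under the slide block (4 at an unadjusted p under 0.05).

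Endothelial and stellate cell lists were close to uniform. Of 26 endothelial genes tested 21 were lower and 1 higher, with a median of -1.59, and of 27 stellate cell and matrix genes 21 were lower and 0 higher by limma (0 also at an unadjusted p under 0.05), with a median of -1.56. Clec4g, a lectin of sinusoidal endothelium, read 6.19, 6.23, 6.33 and 6.16 in WT livers and 2.87, 4.02, 3.8 and 3.5 in mutant livers, a difference of -2.68 ± 0.24 (adjusted p = 0.000115, slide 4 difference -2.66). Plvap, which forms the diaphragms of vessel pores, differed by -2.47 ± 0.16 (adjusted p = 3.28e-05, slide 4 difference -2.14). Kdr, the VEGF receptor, did not pass the test on the probe used (-0.21 ± 0.18, adjusted p = 0.377), and its other probe differed by -1.86. The matrix genes Lum (-2.76 ± 0.22, adjusted p = 6.75e-05, slide 4 difference -2.3) and Col3a1 (-2.36 ± 0.46, adjusted p = 0.00406, slide 4 difference -1.95) and the stellate cell gene Reln (-2.37 ± 0.25, adjusted p = 0.000253, slide 4 difference -2.54) were lower, and Col1a1 (-0.55 ± 0.35, adjusted p = 0.229) did not pass. Of the 21 endothelial falls 6 held under the slide block, and of the 21 stellate cell and matrix falls 8.

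Blood cell genes made in bone marrow or fetal liver rose in part. Of 13 megakaryocyte and platelet genes tested, 11 were higher and 1 lower, with a median of 1.61, or 0.66 under normexp background correction. Gp9, a platelet surface receptor chain, read -2, -1.93, -2.16 and -2.11 in WT livers and 0.07, 0.11, -0.6 and 0.08 in mutant livers, a difference of 1.96 ± 0.18 (adjusted p = 0.000145, slide 4 difference 2.19). Gp5, another chain, was below background in every WT liver and at least 3.24-fold higher (adjusted p = 0.000129), and the adhesive protein Thbs1 rose by 1.62 ± 0.15 (adjusted p = 0.000129, slide 4 difference 1.87). Itga2b, the integrin of platelets, differed by 1.02 ± 0.39 (adjusted p = 0.0646). Of the 11 rises, 8 held under the slide block.

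Neutrophil and granule genes were higher in 7 and lower in 2 of 15 tested, with a median of 1.84, or 1.17 under normexp background correction. The 2 lower members were Wfdc21, described above, and the granule gene Prtn3, while Elane, Camp and Ltf were not called. Mpo, a peroxidase of immature granulocytes, read -1.85, -1.81, -2.07 and -0.95 in WT livers and 1.55, 0.95, -1.59 and 2.84 in mutant livers, so that mutant liver 3 lay among the WT livers. The Mpo difference of 2.61 ± 0.82 (adjusted p = 0.0304, slide 4 difference 3.79) became 3.45 without mutant liver 3 and 1.98 without mutant liver 4, and lost its call without WT liver 1, 2 or 3 or mutant liver 1, 2 or 4. Chil3, a lectin of these cells, followed the same order among mutant livers (1.92, 1.27, -0.86 and 3.75), with a difference of 3.41 ± 0.87 (adjusted p = 0.0133; 4.2 without mutant liver 3 and 2.66 without mutant liver 4). S100a9, an abundant gene of mature neutrophils, did not pass (1.29 ± 0.78, adjusted p = 0.214), or adjusted p = 0.0203 with the scan day as a block. The list had 11 genes called higher without mutant liver 3, and 4 without WT liver 3 or mutant liver 1.

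Of 18 erythroid genes tested, 3 were higher (16.7%) and 4 lower (22.2%), against 25.7% and 18.3% of all features, and 1 of each held under the slide block. The haemoglobins varied among mutant livers: Hba-a1 read 9.21, 8.61, 8.89 and 9.41 in WT livers and 9.21, 8.17, 4.74 and 5.92 in mutant livers, and Hbb-bt read 8.28, 7.6, 8.03 and 9.1 against 8.53, 7.13, 3.12 and 4.71. Mutant livers 1 and 2 were near the WT livers and mutant livers 3 and 4 far below them, and the differences did not pass the test (adjusted p = 0.0953 and 0.101). Tfrc, the transferrin receptor, rose by 2.41 ± 0.24 (adjusted p = 0.000183, slide 4 difference 1.83). Klf1, the erythroid transcription factor, was called higher (2.04 ± 0.56, adjusted p = 0.0182; 2.65 without WT liver 4), but read 0.36 in WT liver 4, differed by -0.09 on slide 4 and lost its call without WT liver 1 or 2. Without mutant liver 1, 9 genes of the list were lower, and without WT liver 1, WT liver 4 or mutant liver 4, 1 was.

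Epithelial genes shared with the bile duct were called about as often as all features, of which 25.7% were higher and 18.3% lower. Of 16 biliary genes tested, 4 were higher (25%) and 3 lower (18.8%), of which 1 and 2 held under the slide block. The keratins Krt8 (1.68 ± 0.21, adjusted p = 0.000496, slide 4 difference 1.32) and Krt18 (1.57 ± 0.16, adjusted p = 0.000211, slide 4 difference 1.21), which hepatocytes also make, rose, and the water channel Aqp1, which endothelium shares, fell by 1.83 ± 0.17 on the log2 scale (adjusted p = 0.000133, slide 4 difference -1.84).

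Cytochrome P450 and bile acid genes were called about as often as all features, of which 25.7% were higher and 18.3% lower. Among cytochrome P450 genes 8 of 42 tested were higher (19%) and 11 lower (26.2%), of which 1 and 6 held under the slide block; Cyp2c55 rose by 2.32 ± 0.35 (adjusted p = 0.00122, slide 4 difference 1.43), Cyp3a11 by 0.9 ± 0.17 (adjusted p = 0.00305, slide 4 difference 0.88) and Por, the reductase that feeds them electrons, by 2.5 ± 0.26 (adjusted p = 0.000229, slide 4 difference 1.88), and Cyp4f14 fell by 3.57 ± 0.26 (adjusted p = 5.08e-05, slide 4 difference -3.33). Of bile acid genes 7 of 27 tested were higher (25.9%) and 5 lower (18.5%), and 1 of each held; Slco1a4, an uptake transporter, rose by 2.55 ± 0.36 (adjusted p = 0.000869, slide 4 difference 2.67). Slc10a1, the main bile acid importer, differed by -0.01 ± 0.13 on the probe used and by -1.3 on its other probe. Carboxylesterases and serpins were lower in 14 (53.8%) and higher in 3 (11.5%) of 26 (6 and 1 held). Sulfotransferases and glucuronosyltransferases were higher in 6 (30%) and lower in 6 (30%) of 20 (2 and 4 held). Both lists were called more often (65.4% and 60%) than all features (44%). Semaphorins and their receptors were lower in 7 (53.8%) and higher in 2 (15.4%) of 13 (4 and 1 held). Notch pathway genes were lower in 6 (50%) and higher in 1 (8.33%) of 12, and by limma 0 of either held under the slide block (4 falls and 0 rises at an unadjusted p under 0.05). Hippo pathway genes were lower in 4 (22.2%) and higher in 3 (16.7%) of 18, and 1 fall and 0 rises held (4 and 1 at an unadjusted p under 0.05). Iron genes were lower in 7 (41.2%) and higher in 5 (29.4%) of 17, and 1 fall and 0 rises held (5 and 3 at an unadjusted p under 0.05). Clock genes were lower in 3 (18.8%) and higher in 1 (6.25%) of 16, and 1 fall and 0 rises held (2 and 0 at an unadjusted p under 0.05). The shares of falls in the Hippo and clock lists were near the 18.3% of all features.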

How the data were processed

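RNA from 8 livers was measured on Agilent 1-colour mouse arrays with Cy3 label. Per the file headers and the submitters' processing notes, the intensity values are background-subtracted processed signals of Agilent Feature Extraction 10.7.1.1, and they were used as deposited. The authors' deposited table of log2 values (each array's median near 4.51) ranked the probes of an array as these signals did, so its scale and direction are known; how it was normalized is not given in the sources used here. It served as an alternative.

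Control spots and spots flagged as outliers were left out, log2 signals were scaled to each array's 75th percentile, and spots of a probe were averaged. Probes well above background on at least 3 of 8 arrays were kept (29111 of 55681), and each gene took its brightest probe. Probes with no symbol in the files were tested by accession (8131), and 13808 genes had a symbol. A 2-group fit in limma 3.58.1 (R 4.3.3) gave differences, standard errors and Benjamini-Hochberg adjusted p-values over all 21939, tested on simulated data. The number of arrays limits the precision.

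The comparison, the gene lists and the rule for naming genes (the 15 highest and 15 lowest, and up to 5 called members in each direction and 3 not called per list, and Ctnnb1, Myc, Nfe2l2 and Alb) were chosen with earlier results of these data known, so the lists are described by counts and medians only. The alternatives were other scalings, background corrections, filters and probe rules, blocks for slide and scan day, and leaving out each array; those with the scan day were added after the headers were seen. Promoters came from RefSeq's table for GRCm38.p6. Some genes are not reported here.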

Additional observations from a re-analysis of the deposited data

Results flagged for a closer look

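Within each group, a gene's highest or lowest liver was compared with the other 3 by Dixon's gap test at its usual critical value. Of 414 groups of 4 values, 22 were marked, near the 1 in 20 that chance gives.

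In WT liver 4, Ccnd1 read 3.27 against 4.79 to 5 in the other WT livers, Birc5 2.2 against 3.65 to 3.82, Lum 2.18 against 2.93 to 2.97, Klf1 0.36 against -2.19 to -1.8 and Dppa5a -5.83 against -6.61 to -6.59, the last of these below background throughout. In WT liver 1, Igf2 read -2.1 against -6.18 to -5.66, Asl 4.85 against 5.32 to 5.4, Aldoa 6.88 against 6.54 to 6.59 and Cyp3a11 8.91 against 8.56 to 8.61. In WT liver 2, Cxcl9 read 5.07 against 1.59 to 2.13.

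In mutant liver 3, Bex1 read 0.97 against 5 to 5.33 in the other mutant livers, Gp9 -0.6 against 0.07 to 0.11, Sc5d 4.54 against 5.81 to 5.9 and Cyp3a11 9.94 against 9.41 to 9.47. In mutant liver 4, Cbr3 read 4.47 against 8.06 to 8.58, C9 -2.29 against -6.44 to -6.23, C8a 2.97 against 0.93 to 1.15 and Cxcl9 0.34 against -2.09 to -1.74. In mutant liver 1, Gpnmb read 1.11 against -0.23 to -0.07 and Apoa2 10.72 against 10.98 to 11.01. In mutant liver 2, Cd74 read -0.13 against 1.6 to 1.93 and Plvap 1.57 against 1.98 to 2.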

How the results depend on the processing

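No paired analysis was possible because the labels carry no replicate numbers that the groups share; the only pairing in the headers is the slide. With the slide as a fixed block, which rests on the slide 4 pair and 3 residual degrees of freedom, 837 features were higher and 889 lower, and 1431 calls kept their sign and call. In this fit 6 of 182 named calls changed direction: Cyp1a2 (-0.47), Gstp1 (-0.57), Gclm (-0.26), A1bg (0.17), Hao2 (0.14) and Klf1 (-0.09). The cause was not tested. Leaving out 1 array gave 4387 to 5854 higher and 3349 to 3992 lower, and 7239 calls held without any single array. Across the other alternatives 4522 to 5757 features were higher and 3434 to 4930 lower. Of the 182 named calls, 93 kept direction and call under every alternative, and 162 under every alternative but the fixed slide block. Calls near the threshold depend on the number of arrays, and a gene below background in a group has only a bound, which rests on the background handling.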
